A study of Mus musculus with 44 samples.

Results

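The calcium/calmodulin-dependent protein kinases and their inhibitors form a small family of signalling genes. The 9 genes described here are Camk2a, Camk2b, Camk2d and Camk2g, the inhibitor genes Camk2n1 and Camk2n2, and Camk4, Camkk1 and Camkk2. They were chosen by gene symbol, as a family, with strain differences in these same arrays already known, that of Camk2n1 in particular. The strain differences of their probes are therefore a description here and carry no p-value. Probes for 8 of the 9 genes were found, of 18101 genes annotated with a single symbol on at least 1 array type, and no probe annotated to Camkk1 was found in the tables used.

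Striatum, the input station of the basal ganglia, was taken from naive adult mice of 2 inbred strains, C57BL/6J (B6) and DBA/2J (D2), which carry no transgene or treatment. Affymetrix MOE430 2.0 arrays were hybridised with RNA of 10 B6 and 10 D2 mice, 5 of each sex in each strain, and Illumina MouseRef-8 arrays with RNA of 12 B6 and 12 D2 males. All differences are B6 minus D2. An Affymetrix probeset, which summarises several short probes, is given on the authors' log2 RMA scale, and an Illumina probe, 1 oligonucleotide of 50 bases, on their variance-stabilised (VST) scale, on which high values run nearly as log2 and low values are compressed.

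A rise of calcium in a neuron loads calmodulin, which then binds and opens the kinases of this family. CaMKII is a holoenzyme built from the products of Camk2a, Camk2b, Camk2d and Camk2g. It phosphorylates receptors and scaffold proteins at synapses and can stay active after calcium has fallen. The CaMKII inhibitor proteins encoded by Camk2n1 and Camk2n2 bind the active kinase. Camk4 encodes a mainly nuclear kinase that phosphorylates transcription factors such as CREB, and Camkk1 and Camkk2 encode the upstream kinases that activate it. In the striatum these enzymes act in the medium spiny neurons, its main cell type, and in the terminals of cortical and thalamic neurons that reach them.

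A probe reads only the stretch of transcript it is built on, and several of these genes were read by more than 1 probe. The first 30 of 50 bases of Illumina probes, decoded from the identifiers in the deposited tables, are shown for Camk2n1, the gene of the largest strain difference among the members, for Camk2b, and for Camk2d, Camk2g and Camkk2, which each had more than 1 Illumina probe, to make plain that the probes of a gene are different stretches. Those of Camk2a and Camk4 are not shown. No part is capitalised.
Camk2n1 ILMN_2810963: ataggggttctcttaaggctcgccagctgc
Camk2b ILMN_1236009: aggacactcctgctctaactggctaggtgt
Camk2d ILMN_1222123: caacagtgccacttcttcattctgtcctca
Camk2d ILMN_3070701: taccccggcgctggagccccaaactactgt
Camk2d ILMN_3119478: gtcctgccctggtctccttcaataaacaac
Camk2g ILMN_2765196: cagccaacagataccttcatcacagggttt
Camk2g ILMN_3135323: tcaggaggcacaggagctgggaaaagagaa
Camkk2 ILMN_1256263: ctgcacggggctgctgcaccctgcgtttcc
Camkk2 ILMN_2846803: gggggcggattagaaggatcggtgtgaccc
Over their full length, the probes of Camk2d shared a longest common run of 6 bases with each other, those of Camk2g 6 and those of Camkk2 5. The share of G and C was 50% in the Camk2n1 probe, against a median of 54% over the 14185 probes of the table. The genes lie on mouse chromosomes 4 (Camk2n1), 3 (Camk2d), 14 (Camk2g), 5 (Camkk2), 11 (Camk2b and Camkk1), 16 (Camk2n2) and 18 (Camk2a and Camk4), by RefSeq gene names.

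The 8 genes were read by 28 Affymetrix probesets, of which 25 were in the upper 50% by mean and were tested, and 7 of them by 12 Illumina probes, of which 11 passed the filter on detection. At an adjusted p under 0.01, 6 of the 25 tested probesets were called, of which B6 was higher at 3 and D2 at 3. Over all 19437 probesets tested, 9.7% were called, 4.7% with B6 higher and 5% with D2 higher. Of the 11 tested Illumina probes, 1 was called, higher in D2. Over all 11072 Illumina probes, 9.77% were called, 5.36% with B6 higher and 4.41% with D2 higher. The calls fell in 3 genes, Camk2n1, Camk4 and Camk2d, and in Camk2n1 and Camk4 they ran in both directions. Across all genes, 215 had 2 or more called Affymetrix probesets and 47 of these had calls in both directions.

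**Figure D1:**
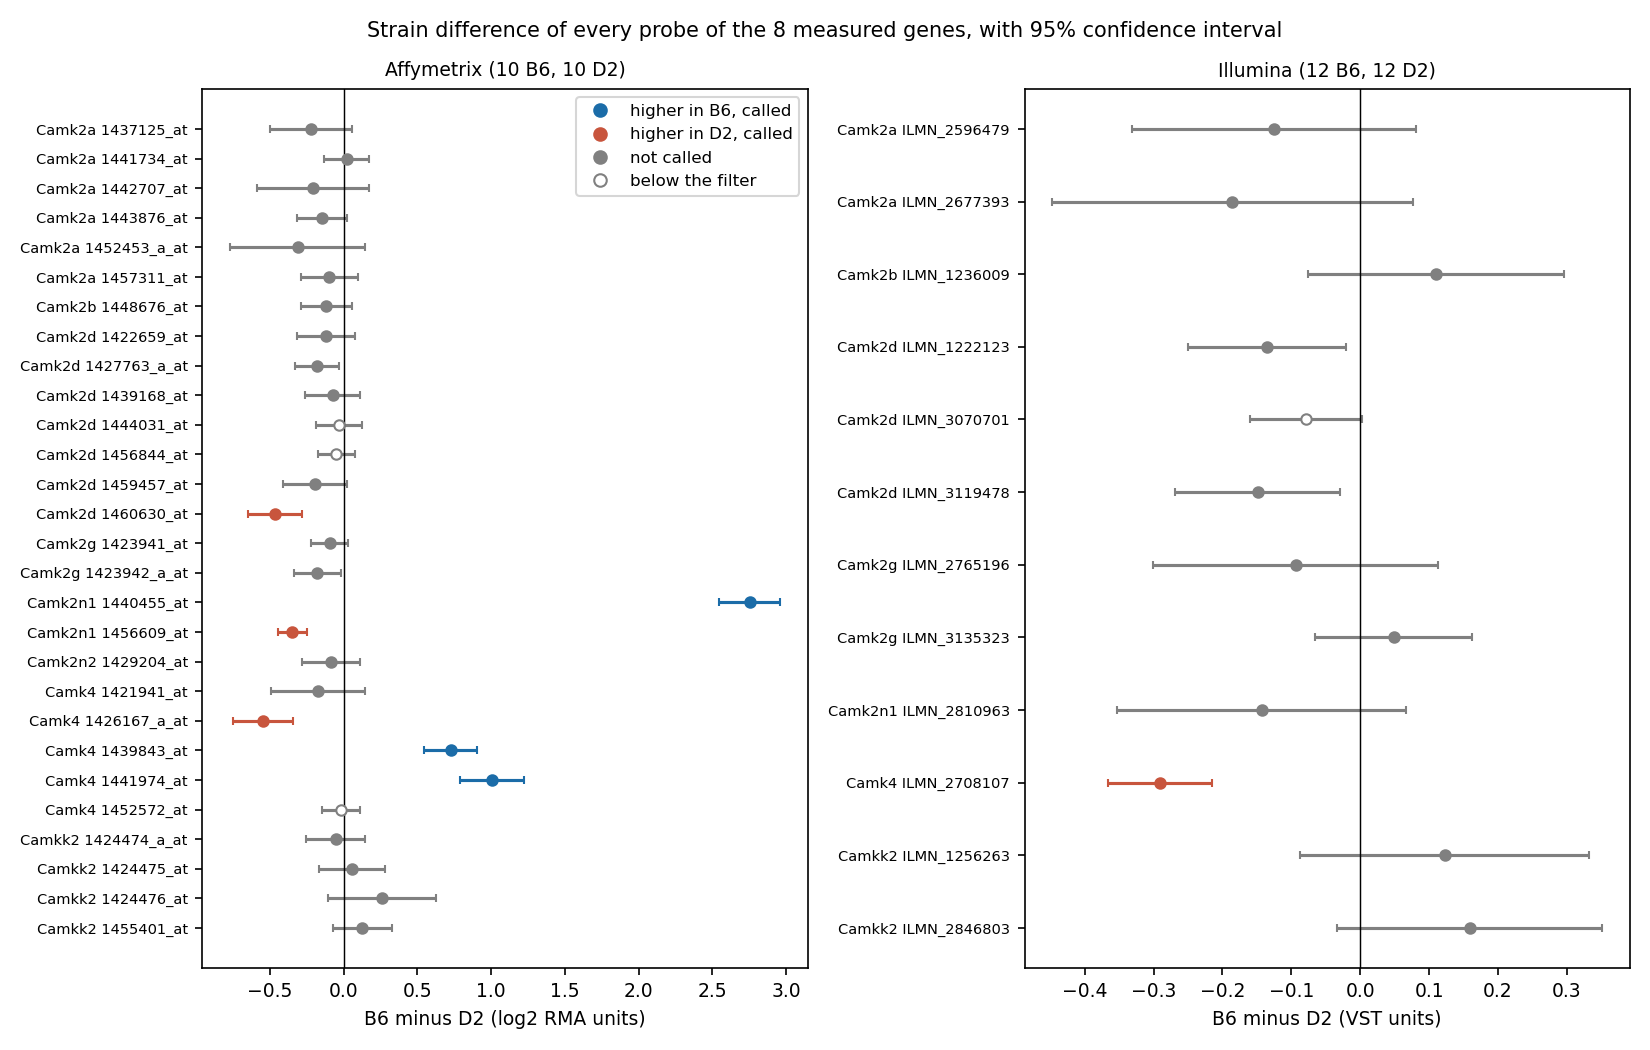
Strain difference, B6 minus D2, of each of the 28 Affymetrix probesets (left, log2 RMA units) and the 12 Illumina probes (right, VST units), with the 95% confidence interval of the fit. Colour marks the 7 called probes and open points the 4 below the filters. The Camk2n1 probeset at 2.754 lies far to the right of all others, and Camk2n1 and Camk4 have called probesets on both sides of 0.

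Array medians on the Affymetrix arrays lay between 6.15 and 6.23. Mean bead signals on the Illumina arrays lay between 1223 and 1822 in B6 and between 599 and 1849 in D2. Medium spiny neuron markers were present: 8 of 10 were measured on the Affymetrix arrays, with a summed log2 level of 14.20 to 15.11 in B6 and 14.27 to 14.81 in D2, and 7 on the Illumina arrays, with 16.13 to 16.94 in B6 and 16.00 to 16.77 in D2. Of these markers, the transcription factor Bcl11b was called higher in B6 on both arrays (1.198 log2 units and 0.57 VST units) and the dopamine receptor Drd2 on the Illumina arrays (0.40). The other 7 tested on the Affymetrix arrays and 5 on the Illumina arrays, each at its probe of lowest adjusted p, were not called. Of these, only Rgs9 on the Affymetrix arrays (-0.48 log2 units) and Tac1 on the Illumina arrays (-0.14 VST units) were lower in B6. Among markers of other cell types, C1qb, C1qc and Tyrobp of microglia were called higher in B6 on both arrays, and the remaining microglial markers tested were not called (C1qa 0.10, Csf1r -0.06 and Cx3cr1 -0.06 log2 units, Cx3cr1 0.10 VST units). The glutamate transporter Slc1a2 of astrocytes was called lower in B6 on both arrays (-1.54 log2 units and -0.45 VST units), and the other 4 astrocyte markers were not called. The summed microglial level was 12.30 to 12.56 in B6 and 11.80 to 12.10 in D2 on the Illumina arrays (5 of 6 markers measured), and 12.15 to 12.48 in B6 and 12.00 to 12.22 in D2 on the Affymetrix arrays (6 of 6 measured). Of the oligodendrocyte markers, 5 of 6 tested on the Illumina arrays and 1 of 6 on the Affymetrix arrays were called higher in B6, and they summed to 16.26 to 16.51 in B6 and 15.99 to 16.28 in D2 on the Illumina arrays. On the Affymetrix arrays they summed to 14.76 to 15.19 in B6 and 14.37 to 15.04 in D2. Their part in the results below was not tested. In whole tissue, fewer cells of a type and less RNA per cell cannot be told apart.

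The male B6 array numbered 67 stood apart at these genes. It had the lowest value among the 10 B6 arrays at 18 of the 25 tested probesets (72%), against 20.4% of all tested probesets, and the median of its deviations from the other B6 arrays was -0.56 over the 25. It was also the highest B6 array at 6 of the 25. Its summed level of thalamic markers (4 of 4 measured) was 12.46, against 9.41 to 11.10 in the other B6 arrays and 9.30 to 11.68 in D2. Its cortical pyramidal neuron markers (7 of 8 measured) summed to 10.96, against 11.80 to 12.79 in the other B6 arrays and 11.84 to 12.93 in D2, and its medium spiny neuron markers to 14.20, against 14.62 to 15.11 in the other B6 arrays and 14.27 to 14.81 in D2. Its oligodendrocyte markers summed to 15.19, against 14.76 to 15.06 in the other B6 arrays and 14.37 to 15.04 in D2. Its choroid plexus markers summed to 14.36, against 9.41 to 14.19 in the other B6 arrays and 8.67 to 14.32 in D2. Its astrocyte and microglial sums lay inside the range of the other B6 arrays. Array 64, by its label a B6 female, sat midway between B6 and D2. On a linear scale with the D2 mean at 0 and the mean of the other B6 arrays at 1, its median place was 0.53 over the 245 probesets that were called without it with a difference of at least 1 log2 unit, against 1.02 to 1.07 for each of the other 9 B6 arrays, array 67 among them, placed the same way. At Camk2n1 1440455_at array 64 was at 0.62 on this scale, and array 67 at 0.62. At the other Camk2n1 probeset, 1456609_at, array 64 was at 0.90, inside the range of 0.68 to 1.54 of the other B6 arrays. What array 64 holds was not tested. Without arrays 64 and 67, the same 6 probesets were called as with them. Their differences were then 2.88 and -0.32 at Camk2n1 1440455_at and 1456609_at, 0.83, 1.09 and -0.52 at Camk4 1439843_at, 1441974_at and 1426167_a_at, and -0.49 at Camk2d 1460630_at, against 2.754, -0.35, 0.73, 1.004, -0.55 and -0.46 with all arrays.

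**Figure D2:**
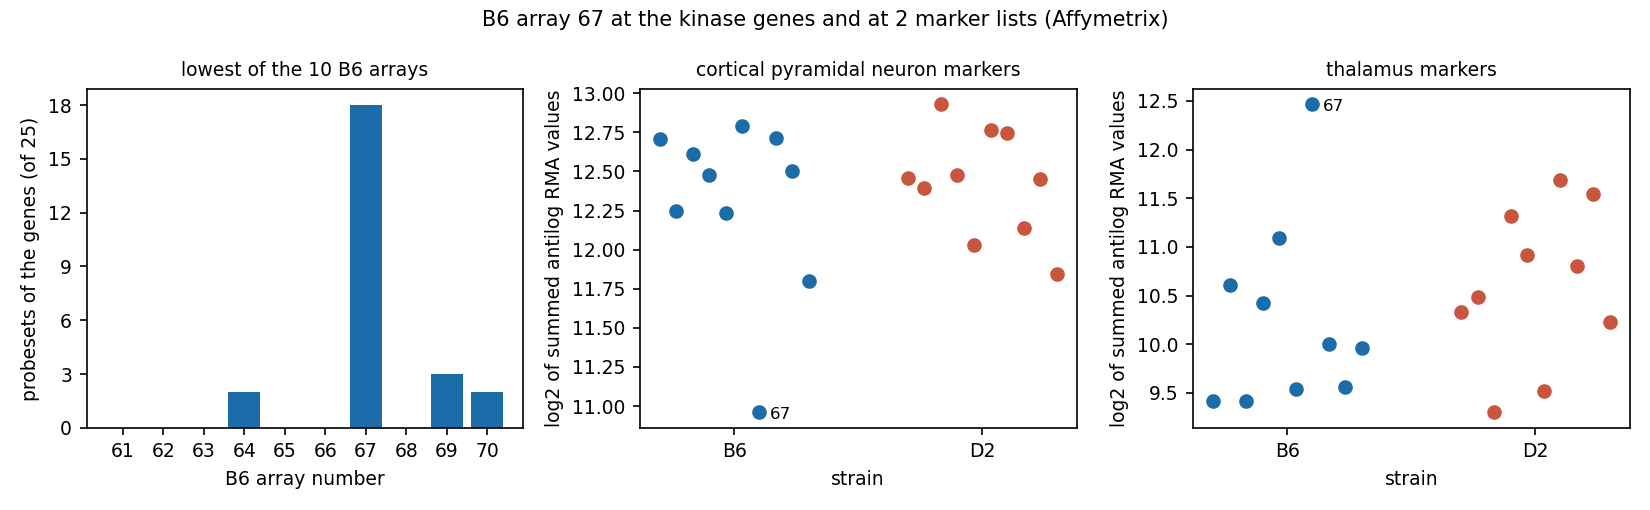
Number of the 25 tested probesets of the kinase and inhibitor genes at which each B6 array was the lowest of 10 (left), and summed level of cortical pyramidal neuron markers (middle) and thalamic markers (right) on each Affymetrix array, as log2 of summed antilog RMA values, by strain. Array 67 was lowest at 18 probesets, had the lowest cortical sum (10.96) and the highest thalamic sum (12.46) of all 20 arrays.

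Camk2n1, the inhibitor of CaMKII, was read by 2 Affymetrix probesets that differed between the strains in opposite directions, each without overlap. With probeset 1440455_at, the B6 females 61 to 65 had log2 RMA values of 10.55, 10.68, 10.47, 9.99 and 10.44 and the B6 males 66 to 70 had 10.59, 9.98, 10.71, 10.77 and 10.67. The D2 females 71 to 75 had 7.67, 7.70, 8.08, 7.62 and 7.77 and the D2 males 76 to 80 had 7.73, 7.63, 7.5, 7.87 and 7.74. Every B6 array was above every D2 array, with 1.90 log2 units between the lowest B6 and the highest D2 value, and the 2 lowest B6 values were those of arrays 64 and 67. The means were 10.48 ± 0.28 in B6 and 7.73 ± 0.16 in D2 (SD, n = 10 each), a difference of 2.754 ± 0.10 (SE, 95% interval 2.55 to 2.96) or 6.75-fold. It ranked 21 by size among the 19437 probesets.

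The other Camk2n1 probeset, 1456609_at, was among the brightest on the array (percentile 99.97 by mean over 38870 probesets) and was higher in D2. The B6 females had values of 13.24, 13.11, 13.30, 13.22 and 13.10 and the B6 males 13.23, 12.95, 13.23, 13.14 and 13.29. The D2 females had 13.61, 13.43, 13.65, 13.58 and 13.44 and the D2 males 13.56, 13.52, 13.55, 13.47 and 13.47. The strains again did not overlap, but the gap between them was only 0.13, and the means were 13.18 ± 0.11 in B6 and 13.53 ± 0.07 in D2 (SD, n = 10 each). The difference was -0.35 ± 0.05 (SE, 95% interval -0.44 to -0.25), or 1.27-fold. Over all tested probesets, 3.21% had no overlap between the strains.

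These 2 probesets of Camk2n1 thus gave strain differences that lay 3.101 ± 0.10 log2 units apart (SE, 95% interval 2.89 to 3.31, from the difference of the probesets on each array). Within strain and sex their values correlated with r = 0.37 over 20 arrays, which include array 67, low at both. On the Illumina arrays, the only Camk2n1 probe, ILMN_2810963, was not called. Its VST values in the 12 B6 males were 14.76 at the lowest, 15.42 at the median and 15.80 at the highest, and in the 12 D2 males 15.10, 15.56 and 15.80. The ranges lay almost wholly inside each other. The means were 15.37 ± 0.27 in B6 and 15.51 ± 0.25 in D2 (SD, n = 12 each), a difference of -0.14 ± 0.10 (SE, 95% interval -0.35 to 0.07). This probe ranked between 16 and 115 by value within each B6 array and between 16 and 71 within each D2 array, and equal ranks hold equal values on all arrays of this table. Its bead signals before normalization were 26600 to 67851 in B6 (median 47578) and 15001 to 65242 in D2 (median 53780). With the non-normalized signals on a log2 scale, centred on the array median, the difference was 0.05, with the opposite sign.

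**Figure D3:**
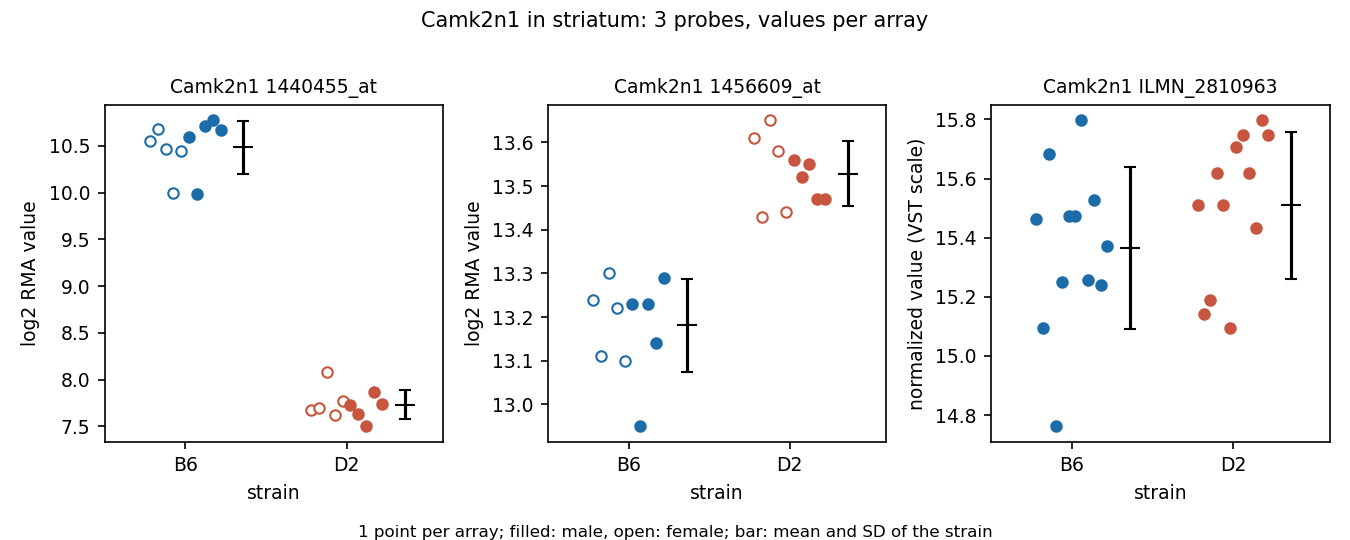
Values of the 3 Camk2n1 probes on each array, by strain (1 point per array, filled for males and open for females, with mean and SD), in log2 RMA units for the 2 Affymetrix probesets and in VST units for the Illumina probe. B6 lies 2.754 above D2 at 1440455_at and 0.35 below D2 at 1456609_at, without overlap, and the strains overlap at the Illumina probe.

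Camk2n2, which encodes the other CaMKII inhibitor, was read by 1 probeset. Its values were 9.47 to 10.42 with a median of 9.83 in B6, and 9.78 to 10.10 with a median of 9.84 in D2, and 1 B6 array was above all D2 arrays. The highest of these, 10.42, was that of array 67. The difference was -0.09 ± 0.09 (SE, 95% interval -0.28 to 0.11), and no probe annotated to Camk2n2 was found in the Illumina table.

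Camk4, the nuclear kinase of the family, was also called in both directions. Its probesets 1439843_at and 1441974_at were higher in B6. At 1439843_at the B6 females had 11.13, 11.06, 11.06, 10.68 and 11.07 and the B6 males 11.24, 10.59, 11.03, 11.17 and 11.38, against 10.67, 10.32, 10.16, 10.28 and 10.25 in D2 females and 10.33, 10.39, 10.27, 10.14 and 10.33 in D2 males. Only D2 array 71 reached into the B6 range, above B6 array 67. The means were 11.04 ± 0.24 in B6 and 10.31 ± 0.15 in D2 (SD, n = 10 each), and the difference was 0.73 ± 0.09 (SE, 95% interval 0.55 to 0.91), 1.66-fold.

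At 1441974_at the B6 values were 8.91, 8.81, 8.84, 8.83 and 9.02 in females and 8.86, 8.09, 8.64, 8.98 and 9.08 in males. The D2 values were 8.17, 7.85, 7.49, 7.52 and 7.79 in females and 7.97, 7.86, 7.76, 7.72 and 7.89 in males. The same 2 arrays, B6 67 and D2 71, made the overlap, and the other 9 B6 arrays were above every D2 array. The difference was 1.004 ± 0.10 (SE, 95% interval 0.79 to 1.22), 2.01-fold. Values of these 2 probesets went together within strain and sex (r = 0.86 over 20 arrays).

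Probeset 1426167_a_at of Camk4 was higher in D2. The B6 females had 7.55, 7.77, 7.71, 8.04 and 7.53 and the B6 males 7.27, 6.92, 7.61, 7.86 and 7.81, against 8.25, 8.11, 8.15, 8.01 and 8.34 in D2 females and 8.17, 8.20, 8.02, 8.14 and 8.16 in D2 males. Of the D2 arrays, 8 lay above every B6 array, and array 64 was the only B6 array inside the D2 range. The difference was -0.55 ± 0.10 (SE, 95% interval -0.75 to -0.34), 1.46-fold, with an SD of 0.32 in B6 and 0.10 in D2 (n = 10 each). Its strain difference minus that of 1439843_at was -1.27 (95% interval -1.52 to -1.03), and minus that of 1441974_at it was -1.55 (-1.75 to -1.36).

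The other 2 Camk4 probesets were not called. Probeset 1421941_at had values of 6.46 to 8.18 with a median of 7.70 in B6, and 7.65 to 8.03 with a median of 7.78 in D2, a difference of -0.17 ± 0.15 (SE), and its lowest value was that of array 67. It correlated within strain and sex with 1426167_a_at (r = 0.89 over 20 arrays). Probeset 1452572_at, below the filter, was near 5.7 in both strains and differed by -0.02 ± 0.06 (SE). Of the 10 pairs of Camk4 probesets, 9 had strain differences whose 95% interval of the gap left out 0. Pairs with 1452572_at, below the filter, are among these 9.

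The Illumina probe of Camk4 was the only one of the 11 tested that was called, and was higher in D2. It was dim. Detection above background was reached on 8 of the 12 B6 and all 12 D2 arrays, and the probe passed the filter through D2 alone. Its VST values in B6 were 8.84 at the lowest, 8.94 at the median and 9.17 at the highest, against 9.13, 9.22 and 9.36 in D2. The 9.17 came from B6 array 12, the only B6 array inside the D2 range, and 9 D2 arrays were above every B6 array. The difference was -0.29 ± 0.04 (SE, 95% interval -0.37 to -0.22) on the VST scale, which understates the change of dim probes. On bead signals the medians were 305 in B6 and 410 in D2. Over all tested Illumina probes, 2.88% had no overlap between the strains, and none of the 11 member probes was among them.

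**Figure D4:**
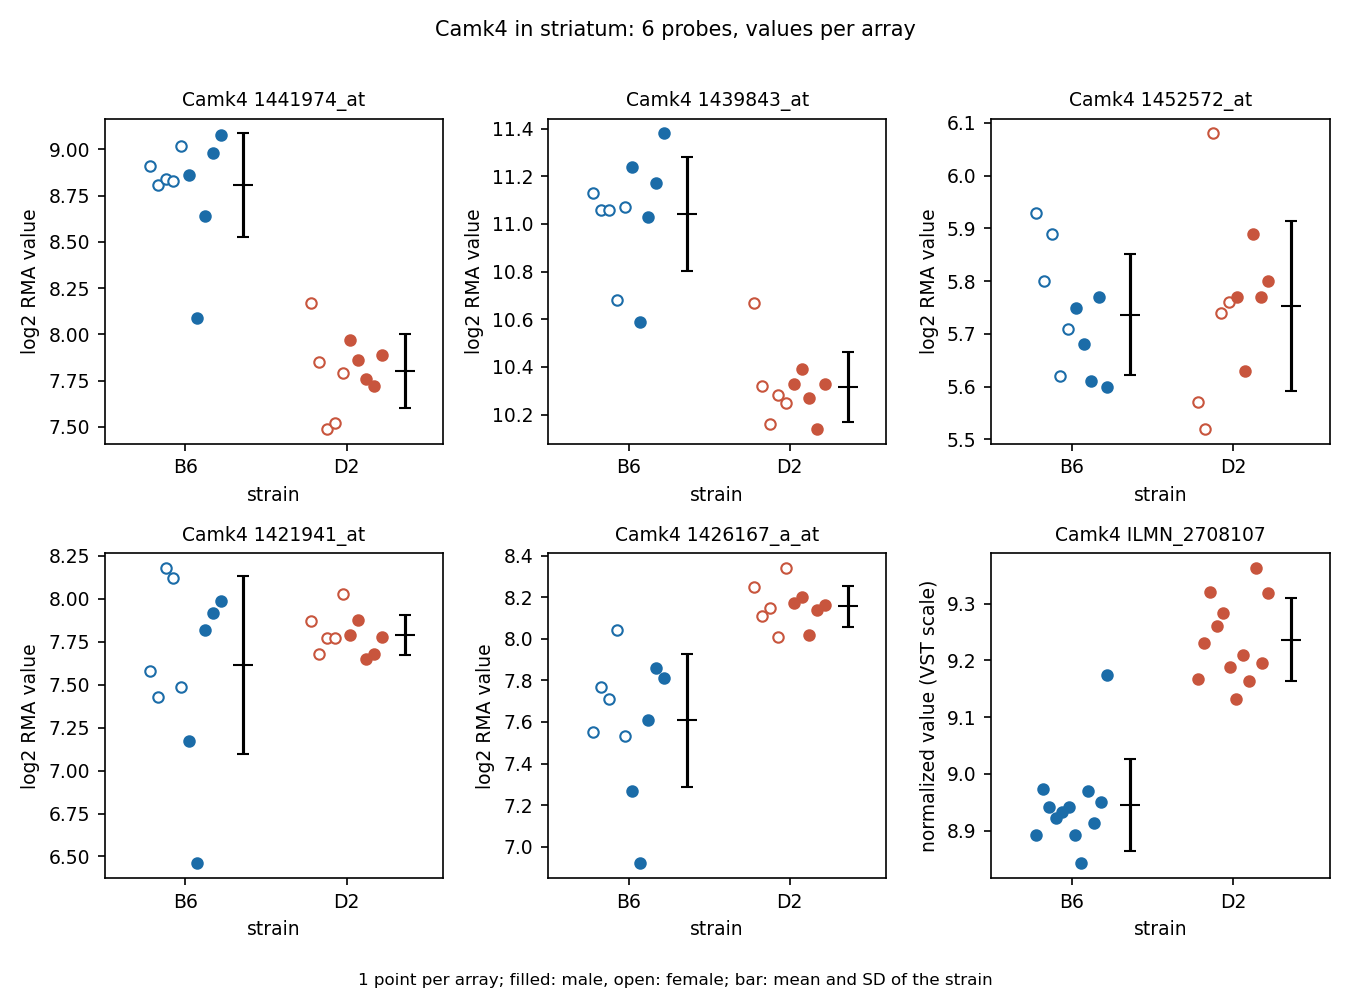
Values of the 5 Affymetrix probesets of Camk4 (log2 RMA units) and of its Illumina probe (VST units) on each array, by strain, 1 point per array, filled for males and open for females, with mean and SD. B6 is higher at 1439843_at and 1441974_at, and D2 is higher at 1426167_a_at and at the Illumina probe. The strains overlap slightly at each of these and widely at the other 2 probesets.

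Camk2d encodes the delta subunit of CaMKII. All of its 7 probesets and 3 Illumina probes had lower means in B6 than in D2, and 1 was called, the probeset 1460630_at. Its B6 values were 6.06 at the lowest, 6.5 at the median and 6.78 at the highest, against a median of 6.97 and a highest value of 7.28 in D2. The ranges overlapped, with 3 D2 arrays below 6.78 and 7 D2 arrays above every B6 array, and array 67 was here the highest B6 array. The difference was -0.46 ± 0.09 (SE, 95% interval -0.65 to -0.28), 1.38-fold.

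The other 4 tested Camk2d probesets differed by -0.20 to -0.07. Probeset 1422659_at was correlated with 1460630_at within strain and sex (r = 0.89 over 20 arrays), yet its own difference was -0.12 ± 0.09 (SE), and the gap between the 2 was 0.34 (95% interval 0.25 to 0.44). Probeset 1459457_at, with a mean just above the filter (percentile 50.04), differed by -0.20 ± 0.10, and 1444031_at and 1456844_at, both below the filter near 4.2, by -0.03 ± 0.08 and -0.05 ± 0.06 (SE). On the Illumina arrays, ILMN_3119478 differed by -0.15 ± 0.06 (95% interval -0.27 to -0.03) and ILMN_1222123 by -0.13 ± 0.06 (-0.25 to -0.02), both not called, and ILMN_3070701, which did not pass the filter, by -0.08 ± 0.04 (SE). The 95% intervals of all 3 gaps between the Illumina probes of Camk2d held 0.

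Camk2a, the alpha subunit of CaMKII and typical of forebrain excitatory neurons, was read by 6 probesets, none of which was called. The brightest, 1457311_at, had values of 11.22 to 12.25 with a median of 11.99 in B6, and 11.85 to 12.29 with a median of 12.04 in D2. Its lowest value was that of array 67, and the next B6 value was 11.86. Differences of the 6 probesets ran from -0.31 to 0.02, with standard errors of 0.07 to 0.22, and their SD in B6 reached 0.57. Without B6 arrays 64 and 67 the difference of 1457311_at was -0.02, against -0.10 with them, and that of 1443876_at was -0.08, against -0.14. The 2 Illumina probes differed by -0.13 ± 0.10 and -0.19 ± 0.13 (SE), and both signs turned without the 4 D2 arrays of lowest signal, to 0.01 and 0.04.

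Camk2b, the beta subunit, differed by -0.12 ± 0.08 log2 units (SE, 95% interval -0.29 to 0.06) at its only probeset and by 0.11 ± 0.09 VST units (-0.08 to 0.30) at its only Illumina probe. Camk2g, the gamma subunit, differed by -0.10 ± 0.06 (SE, 95% interval -0.22 to 0.03) at 1423941_at and -0.18 ± 0.08 (-0.34 to -0.02) at 1423942_a_at. Its Illumina probes differed by -0.09 ± 0.10 and 0.05 ± 0.06 VST units. None of these probes was called, and at each of them at least 6 of the arrays of each strain lay inside the range of the other.

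Camkk2, the upstream kinase, was not called at any of its 4 probesets and 2 Illumina probes. Probeset 1455401_at had values of 9.58 to 10.53 with a median of 10.32 in B6, and 9.87 to 10.40 with a median of 10.12 in D2, with 3 B6 arrays above all D2 arrays and array 67 lowest at 9.58. Its difference was 0.13 ± 0.10 (SE) over all arrays and 0.22 without B6 arrays 64 and 67. The other probesets differed by -0.05 ± 0.10, 0.06 ± 0.11 and 0.26 ± 0.18 log2 units, and the Illumina probes by 0.12 ± 0.10 and 0.16 ± 0.09 VST units (SE).

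The median difference of the 25 tested Affymetrix probesets was -0.12, against -0.03 over all tested probesets. Without B6 array 67 it was -0.079, against -0.02 over all. A negative difference was found at 18 of the 25 with and without that array. They were not the same 18, since Camkk2 1424474_a_at turned positive and Camk2a 1441734_at negative. Several of the 25 read the same gene, and the share of negative differences over all tested probesets was not counted. The median of the 11 Illumina probes was -0.13, against -0.02 over all, with 7 negative. It turned positive without the 4 D2 arrays of lowest signal, at 0.0067, and with log2 bead signals centred on the array median, at 0.17.

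The sexes, and strain by sex, played no part in choosing the genes. None of the 25 probesets was called between females and males, against 0.0257% of all tested probesets (5), and none had an unadjusted p under 0.05. The lowest of these, from limma, was 0.0669, at Camkk2 1424475_at (female minus male 0.21 ± 0.11, SE). Differences between the sexes ran from -0.16 to 0.26. For Camk2n1 they were -0.02 (95% interval -0.23 to 0.18) at 1440455_at and 0.03 (-0.07 to 0.12) at 1456609_at.

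The 6 called probesets were found in 1 fit over both sexes, so equal directions in the sexes are a description and no independent test. At each of the 6 the strain difference had the same direction in both sexes. At Camk2n1 1440455_at it was 2.66 in females and 2.85 in males, and the interaction was -0.19 (95% interval -0.61 to 0.22). At 1456609_at it was -0.35 in females and -0.35 in males, with an interval of the interaction of -0.20 to 0.20. At Camk4 1439843_at it was 0.66 and 0.79, at 1441974_at 1.12 and 0.89, and at 1426167_a_at -0.45 and -0.64, in females and males. At Camk2d 1460630_at it was -0.49 in females and -0.44 in males. None of the 25 interactions was called, with 0% called over all tested probesets, and none had an unadjusted p under 0.05. The lowest p from limma, 0.0756, was at Camk2a 1442707_at, with 0.12 in females and -0.53 in males, of which the male B6 group holds array 67.

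**Figure D5:**
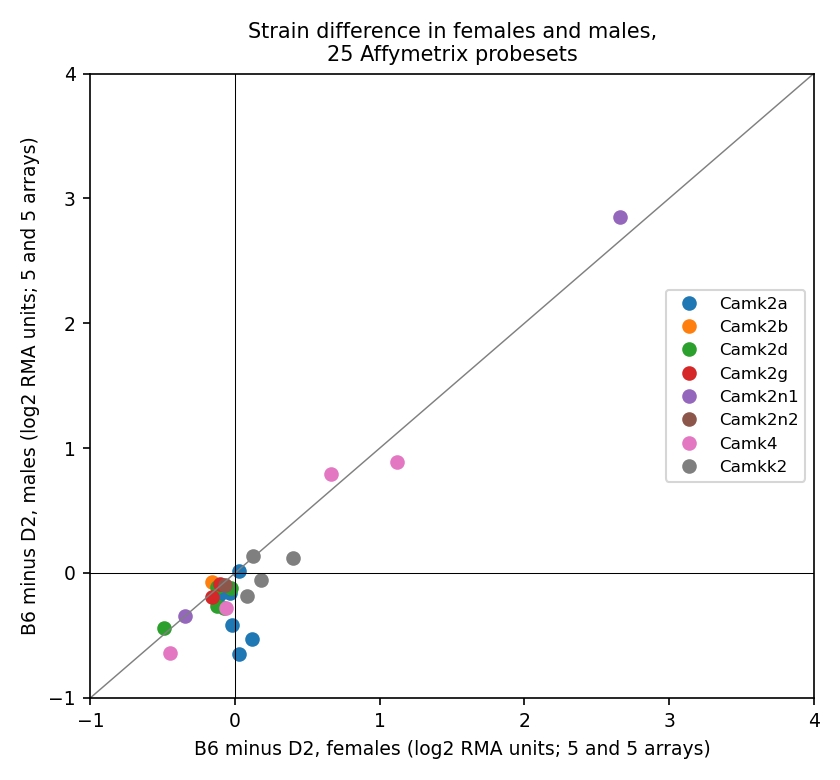
Strain difference, B6 minus D2 in log2 RMA units, in females (x axis) and males (y axis) at the 25 tested probesets, coloured by gene, each from 5 B6 and 5 D2 arrays, with the line of equal differences. The called Camk2n1 and Camk4 probesets lie in the upper right and the lower left near that line, with Camk2n1 1440455_at at 2.66 and 2.85.

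Of 35 other genes of calcium and calmodulin signalling, each counted at its probe of lowest adjusted p, 30 were tested on the Affymetrix arrays and 28 on the Illumina arrays. On the Affymetrix arrays 4 were called, with B6 higher at 2 and D2 at 2, against 12.5% of all genes. On the Illumina arrays 4 were called, with B6 higher at 3 and D2 at 1, against 11.6% of all genes. The median difference of the list was 0.03 log2 units on the Affymetrix arrays, against -0.03 over all genes, and 0.04 VST units on the Illumina arrays, against -0.02. The list was made with earlier results of these arrays known, and the genes named next were picked because they were called. Their adjusted p are therefore a description and no independent test.

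Rcan2, a regulator of the phosphatase calcineurin, was higher in B6 on both arrays. It averaged 9.12 ± 0.16 in B6 and 8.41 ± 0.12 in D2 in log2 RMA units (SD, n = 10 each), without overlap. The difference at its Illumina probe of lowest adjusted p was 0.30 ± 0.05 VST units (SE). Adjusted p from limma were 2.8e-08 and 6.26e-05, and its other Affymetrix probeset differed by 0.06 and was not called. Its other Illumina probes, ILMN_1212612 and ILMN_3106592, differed by 0.36 (called) and 0.16 VST units (not called). Gria1, a subunit of AMPA-type glutamate receptors that CaMKII phosphorylates, was lower in B6 on both arrays, with differences of -0.71 ± 0.11 log2 units and -0.44 ± 0.09 VST units (SE) and adjusted p from limma of 8.28e-05 and 6.67e-04. Its other Affymetrix probeset differed by 0.03 and was not called. Its other Illumina probes, ILMN_1248802 and ILMN_2648012, differed by -0.28 and -0.31 VST units, and neither was called.

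Grin2b, the NMDA receptor subunit to which CaMKII binds, was higher in B6 at 2 of its 3 Affymetrix probesets, by 1.82 ± 0.14 and 0.87 ± 0.09 log2 units (SE, adjusted p from limma 5.68e-09 and 3.99e-07). The third probeset differed by -0.12 and was not called. Pcp4, a small protein that binds calmodulin, was higher in B6 by 0.76 ± 0.08 VST units without overlap on the Illumina arrays (adjusted p = 4.39e-08, limma), and by 0.12 ± 0.04 log2 units on the Affymetrix arrays, where it missed the threshold (adjusted p = 0.0466). Camk1d, another kinase of the family, was called lower in B6 at 1 of its 3 tested Affymetrix probesets, with a difference of -0.34 ± 0.07 log2 units (SE, adjusted p = 0.00161, limma). Its other probesets differed by -0.26 and -0.125 log2 units and its Illumina probe by 0.02 VST units, and none of these was called. Dlg4, a scaffold protein of the synapse, was called higher in B6 on the Illumina arrays alone, by 0.52 ± 0.12 VST units (SE, adjusted p = 0.0021, limma). The differences between the 2 array types were not tested.

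Across the 20 Affymetrix arrays, with the mean of each strain and sex removed, the 5 genes whose values were most like those of the brighter Camk2n1 probeset, of 10777 genes, were Ppp3cb, Tpbg, Nptn, Nrsn1 and Zfp451. Their r was 0.90, 0.90, 0.89, 0.88 and 0.87 and their rho 0.85, 0.88, 0.87, 0.79 and 0.87, and without the 2 arrays farthest from the median of Camk2n1 their r was 0.84, 0.82, 0.82, 0.80 and 0.76. The arrays share their normalization, and array 67 is among them. Camk2n1 correlated with Camk2a at r = 0.69 over the 20 arrays and at r = 0.47 without array 67. Camk2a correlated with Camk2b at r = 0.71 and 0.38, and Camk2g with Camkk2 at r = 0.66 and 0.63, with and without that array. These pairs were picked from all pairs of the measured genes, and some other pairs were negative. With and without array 67, Camk2n2 gave r = -0.64 and -0.40 with Camk4, and -0.49 and -0.19 with Camk2n1. For all values without arrays, the means removed were still those over all 20 arrays. The arrays left out thus kept a part in these r.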

How the data were processed

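The members and the lists were chosen with earlier results of these data known. The Affymetrix table holds log2 values deposited by the authors, summarised by RMA from perfect-match probes once probes over a SNP or with several matches had been masked. The Illumina values are deposited on a VST scale, and the study names robust spline normalization, yet sorted values of all arrays differed by at most 0.0019, which quantile normalization would give. Non-normalized bead signal intensities per probe, deposited with detection p-values, served for filters and alternatives. The submitters' processing notes name MAS5 5.0 and GenomeStudio. MAS5 calls were not used here.

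The filter kept the 50% of Affymetrix probesets with the highest means (at least 6.19) and the Illumina probes with a detection p under 0.05 on all arrays of at least 1 strain. Differences were fitted over the whole table in limma (version 3.58.1, with statmod 1.5.0, under R 4.3.3) by lmFit and eBayes, with a term for sex on the Affymetrix arrays, adjusted by Benjamini-Hochberg over all kept features and called at an adjusted p under 0.01. The fit was tested on simulated data. The gap between 2 probes of a gene came from a linear model of their difference on each array. Named are all probes of the 9 genes, pathway genes called on both arrays and up to 4 called on 1, and the 5 genes most like the brighter Camk2n1 probeset. Probe annotation is GEO's and can be old, and Illumina identifiers were decoded to the probe sequence. Positions of probes in the transcripts were not used. Each array holds RNA of 1 mouse by the study's methods, and the number of arrays limits the precision.

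Equal numbers 1 to 12 of B6 and D2 Illumina arrays did not pair them: the correlation of their deviations from the strain means ran from -0.43 to 0.29 (median -0.10). Alternatives covered filters, normalization, the term for sex, single sexes, array weights, the variance model, the threshold, the replicate block and leaving out arrays. The removal of 2 B6 arrays together, and the medians without single B6 arrays, were added after the data had been seen.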

Additional observations from a re-analysis of the deposited data

Results flagged for a closer look

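In 56 groups of 10 Affymetrix arrays (28 probesets in 2 strains), 8 had an array whose distance to its nearest neighbour was large against the range of its group. Chance marks about 1 in 20 such groups if they are independent. These groups share their arrays, and probesets of a gene can be correlated, so the count cannot be set against that rate. Of the 8, 6 were B6 array 67 as the lowest value: 8.75 at Camk2a 1442707_at (next 9.67), 6.79 at Camk2a 1452453_a_at (next 7.83), 11.22 at Camk2a 1457311_at (next 11.86), 8.09 at Camk4 1441974_at (next 8.64), 5.76 at Camkk2 1424476_at (next 6.3) and 9.58 at Camkk2 1455401_at (next 10.22). The other 2 were D2 arrays: array 75 was lowest at Camk2a 1437125_at with 9.79 (next 10.09), and array 71 was highest at Camk4 1439843_at with 10.67 (next 10.39).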

How the results depend on the processing

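Of 217 single-probe values under alternatives, for the 7 called probes, 213 kept direction and call, 4 lost the call and none changed sign. Some could not come out otherwise, since a looser threshold cannot lose a call and the second deposited Illumina value table equalled the first. Most of the rest left out 1 array. Lost were Camk4 1426167_a_at in females alone (-0.45) and in males alone (-0.64), and Camk2n1 1456609_at (-0.35) and Camk2d 1460630_at (-0.44) in males alone, each with fewer arrays, so that in males alone 3 probesets were called instead of 6, and 10 of the 54 Affymetrix probe pairs had an interval without 0 instead of 18. Leaving out 1 Affymetrix array left 6 called probesets each time and 17 to 20 such pairs. The 54 pairs include those with probesets below the filter. The gap between the Camk2n1 probesets stayed at 3.01 to 3.20 over all alternatives, and the counts for sex and for strain by sex stayed at 0. With probes detected on all 24 Illumina arrays, 0 were called instead of 1, since the Camk4 probe was not tested. Of the 6 Illumina pairs, 1 had an interval without 0 instead of 0 without the 4 D2 arrays of lowest signal, and leaving out 1 Illumina array gave 0 to 1.

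Among uncalled probes 14 values changed sign. These were Camkk2 1424474_a_at (0.08 in females alone, -0.092 to 0.0096 when leaving out 1 array, above 0 without B6 array 67), Camk2a 1442707_at (0.12) and 1452453_a_at (0.026) in females alone, and Camkk2 1424475_at in males alone (-0.058). Camk2a 1441734_at gave -0.010 to 0.050 when leaving out 1 array, below 0 without B6 array 62, B6 array 67 or D2 array 71. Log2 bead signals centred on the array median gave 0.17 and 0.10 for the Camk2a probes ILMN_2596479 and ILMN_2677393, 0.19 for Camk2g ILMN_2765196 and 0.055 for Camk2n1 ILMN_2810963. The 2 Camk2a probes were also positive without the 4 D2 arrays of lowest signal, at 0.0067 and 0.043. The median difference of the Illumina probes turned sign under the same settings, with 0.17 and 0.0067 against -0.13, and that of the Affymetrix probesets was -0.032 in females alone. The cause was not tested.

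With the replicate block on the Illumina numbers, 1 member probe was called, as without it, and Camk4 differed by -0.29. No call of a member changed under that block.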

Other observations

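Genes next to Camk2n1 and Camk4 in the RefSeq annotation (GRCm38.p6) were looked at, and those named here were chosen after their values were seen. Each was taken at its probe of lowest adjusted p. Over all genes taken this way, 12.5% were called on the Affymetrix arrays and 11.6% on the Illumina arrays. Of the 5 protein-coding genes on each side of Camk2n1, 5 were tested on the Affymetrix arrays and 2 called, and 3 were tested on the Illumina arrays and 1 called. Ddost, Fam43b and Pla2g2c were not called on the Affymetrix arrays (0.14, -0.05 and -0.01 log2 units). Mul1, a mitochondrial ubiquitin ligase and the direct neighbour of Camk2n1, was called higher in B6 on both arrays, by 0.62 log2 units and 1.21 VST units (adjusted p = 4.6e-05 and 2.85e-08, limma). Pink1, a mitochondrial kinase 4 places away, was called higher in B6 on the Affymetrix arrays by 0.21 (adjusted p = 0.00512, limma) and differed by -0.19 on the Illumina arrays, where it was not called (adjusted p = 0.0252). Of the neighbours of Camk4, 7 were tested on the Affymetrix arrays and 2 were called, both lower in B6: Stard4, a sterol transfer protein, with a difference of -0.53 and Nrep with one of -0.34 log2 units (adjusted p = 3.6e-04 and 1.89e-04, limma). None of the 5 neighbours of Camk4 tested on the Illumina arrays was called.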
